A study of Mus musculus with 6 samples.

Results

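The genes examined were 10 genes of the neuromuscular junction, chosen by name: the acetylcholine receptor subunits Chrna1, Chrnb1, Chrnd and Chrne, the genes Lrp4, Musk, Dok7 and Rapsn, which assemble the receptor under the nerve ending, the acetylcholinesterase gene Ache and the adhesion molecule gene Ncam1. All 10 were found by Entrez gene ID among the 13363 genes with deposited values. RNA was sequenced from the gastrocnemius, a calf muscle, of 3 tumor-bearing (C26) and 3 control mice without a tumor. All were male Balb/c mice bought at 6 weeks of age, and the C26 mice had been inoculated under the skin of the flank with 500000 cells of colon-26 (C26), a mouse colon adenocarcinoma line whose tumors cause cachexia, a wasting syndrome with muscle atrophy. The muscles of the 2 groups were compared to find genes whose expression differs in cachectic muscle.

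At the neuromuscular junction the motor nerve releases acetylcholine onto a small patch of the muscle fiber that is packed with acetylcholine receptors. Agrin from the nerve binds LRP4, which activates the kinase MuSK together with DOK7, and rapsyn then anchors the receptors, while acetylcholinesterase ends the signal by splitting acetylcholine. In adult muscle the receptor is built of alpha, beta, delta and epsilon subunits, and a gamma subunit takes the place of epsilon in fetal and denervated muscle. The few nuclei under the nerve ending transcribe these genes far more than the other nuclei of the fiber, through E-box sequences bound by myogenic factors and, for some genes, N-box sequences bound by ETS factors. Activity of the nerve keeps several of the genes low elsewhere in the fiber.

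The values are FPKM, read numbers scaled to the length of the transcript and to the size of the library, so levels can be compared between genes per length. Read counts were not analysed here, the depth behind a value is unknown, and errors are SDs over 3 muscles. The summed FPKM were 531061 to 585169 in the C26 muscles and 626992 to 688300 in the control muscles. The labelled tissue was checked by fiber genes, among them skeletal actin (Acta1), which had 10781 to 27269 FPKM over the 6 muscles. Of 10 muscle fiber genes 0 were called different by limma (1 was lower at an unadjusted p under 0.05), and their summed FPKM were 63469 to 88165 in C26 and 105577 to 107477 in control muscles. Fat cell markers were lower in C26 muscles for 6 of 6 genes, with summed FPKM of 2.95 to 36.1 in C26 and 95.01 to 1173 in control muscles. Of 5 immune cell markers 0 were called by limma (1 higher and 2 lower at an unadjusted p under 0.05), with summed FPKM of 17.1 to 254 in C26 and 40.9 to 1198 in control muscles. Control replicate 3 stood apart by Ptprc, with 40.1 FPKM against 0.40 and 0.81 in the other controls, and by Cd74. Of the macrophage markers, Csf1r was highest there (8.34 against 4.94 and 3.17). Cd68 was highest by less (5.77 against 4.75 and 1.75), and Adgre1 was not highest (0.46 against 0.50 and 0.41). C26 replicate 3 stood apart by 2555 FPKM of the myosin gene Myh1 and 4906 FPKM of the myoglobin gene Mb, against at most 299 and 275 in the other C26 muscles.

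Of the 10 genes, 3 fell in the C26 muscles and 0 rose. These were Chrne, Ache and Lrp4, and Chrne and Ache also passed the fold change above 4 that the study used for DEGs. A gene was called when its p from limma, with Benjamini-Hochberg adjustment across the 13363 genes, was under 0.05, and every adjusted p given is of this kind. Of all genes, 14.5% were called lower and 19.4% higher, 33.8% in either direction, and 1.73% were lower and 1.77% higher by more than 4-fold. After scaling, the C26 and control values did not overlap for 3 of the 10 genes, all lower in C26, beside 26.5% of all genes with C26 below control and 27.0% with C26 above. The median log2 fold change was -0.34 over the 10 genes and -0.046 over all genes. At an unadjusted p under 0.05 the counts of the 10 genes were the same, 3 lower and 0 higher. With C26 replicate 3 left out, or with both replicates 3 left out, the counts were 3 lower and 1 higher, the latter being Musk. Over all genes the counts were 2160 lower and 3311 higher without C26 replicate 3, and 2805 lower and 3780 higher without both replicates 3. With C26 replicate 1 or control replicate 1 left out, or with an ordinary linear model per gene, only Chrne was called. With FPKM used as deposited 3 of the 10 genes were again lower and 0 higher, although the split over all genes turned from 2590 higher and 1931 lower to 1678 higher and 2504 lower.

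**Figure D1:**
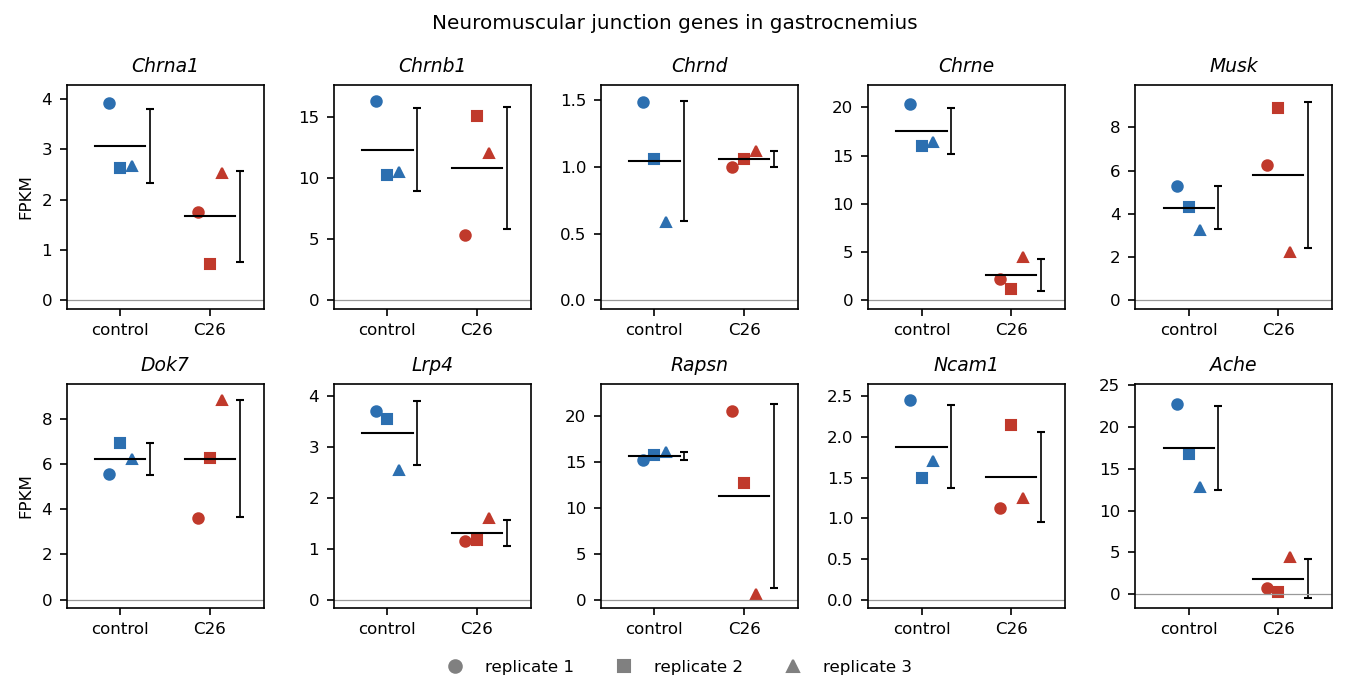
FPKM of the 10 junction genes in each muscle, control in blue and C26 in red, 3 muscles per group. Horizontal lines are group means and the bars beside them are ± SD. Each panel has its own linear axis. The C26 muscles lie below all controls for Chrne, Ache, Lrp4 and, narrowly, Chrna1, and Rapsn is at 0.64 in C26 replicate 3.

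Upstream sequences are shown for members whose promoter motifs can be set beside their expression. RefSeq promoter sequences of build GRCm38.p6 were matched for 6 of the 10 genes, Chrna1, Chrnb1, Chrne, Musk, Dok7 and Ache. The 250 bases before the start were searched on both strands for the N-box CCGGAA and the E-box CANNTG, which reads the same on both strands in its fixed letters. Among 32851 promoters of this length an N-box was present in 12% and at least 3 E-boxes in 12.2%. Of the 6 genes, only Chrne had an N-box, 76 bases before its start, and it had 1 E-box, 138 bases before the start. Chrna1, Chrnb1 and Musk had 3 E-boxes each, and Dok7 and Ache 1 each. Of the genes called lower, Chrne and Ache were thus among the 6, and Ache had no N-box. No N-box overlapped an E-box in these sequences. The stretch from 150 to 31 bases before the start is given below for Chrne, the gene with the N-box, and for the 3 genes with 3 E-boxes, with N-boxes and E-boxes in capitals. The positions are chr11:70619225-70619344 on the minus strand for Chrne, chr2:73580369-73580488 on the minus strand for Chrna1, chr11:69795968-69796087 on the minus strand for Chrnb1 and chr4:58285812-58285931 on the plus strand for Musk.
Chrne: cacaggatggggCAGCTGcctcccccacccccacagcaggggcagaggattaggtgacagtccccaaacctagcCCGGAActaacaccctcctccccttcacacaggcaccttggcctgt
Chrna1: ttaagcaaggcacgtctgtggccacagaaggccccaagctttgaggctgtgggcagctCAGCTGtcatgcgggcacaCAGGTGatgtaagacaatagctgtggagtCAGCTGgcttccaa
Chrnb1: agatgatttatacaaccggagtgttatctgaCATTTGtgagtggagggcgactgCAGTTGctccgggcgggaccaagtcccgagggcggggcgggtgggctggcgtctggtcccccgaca
Musk: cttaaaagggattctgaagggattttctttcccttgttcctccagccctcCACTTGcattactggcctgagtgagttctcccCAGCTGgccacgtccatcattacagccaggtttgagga
The third E-box of Chrnb1, 29 bases before its start, and that of Musk, 177 bases before, lie outside the stretch shown. Where RefSeq had several starts for a gene the first was used, and a match describes these letters and not a bound site.

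Among the receptor subunits, Chrne, which encodes the epsilon subunit of the adult receptor, was the gene that fell. It lies on chr11:70614883-70619216 of GRCm38, minus strand, in GENCODE M21. Chrne had 2.26, 1.23 and 4.49 FPKM in C26 and 20.3, 16.0 and 16.4 in control muscles. The highest C26 value was thus well under the lowest control value, and the C26 mean was 15.1% of the control mean. On the log2 scale of scaled TPM plus 1, the fold change was -2.40 (SE 0.39, 95% interval -3.34 to -1.46), a 5.28-fold lower level, with an adjusted p of 0.00799 in limma. It was called in all 6 fits that left 1 muscle out (leave-one-out fits), with adjusted p (limma) between 0.00176 and 0.0393. In bulk muscle, fewer nuclei that express a gene and less RNA from each of them cannot be told apart.

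Chrna1 encodes the alpha subunit, which carries the acetylcholine binding site, and lies on chr2:73563215-73580338, minus strand. It had 1.75, 0.73 and 2.53 FPKM in C26 and 3.92, 2.62 and 2.66 in control muscles. All C26 values were below all control values in FPKM, but the groups overlapped once the libraries were scaled. On the log2 scale the change was -0.59 (SE 0.35, 95% interval -1.43 to 0.26), which did not pass the test (limma, adjusted p = 0.233). With 1 muscle left out it ran from -0.84 without C26 replicate 3 (adjusted p = 0.0829, limma) to -0.21 without C26 replicate 2 (adjusted p = 0.549, limma).

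Chrnb1, the beta subunit gene, lies on chr11:69784036-69795943, minus strand. It had 5.35, 15.1 and 12.1 FPKM in C26 and 16.2, 10.2 and 10.5 in control muscles. The groups overlapped, and C26 replicate 1 alone was below all controls. On the log2 scale the change was -0.053 (95% interval -0.98 to 0.87) and turned to 0.37 without C26 replicate 1 and to 0.13 without control replicate 1. Chrnd, the delta subunit gene, lies on chr1:87190607-87200070, plus strand, and had the lowest mean FPKM of the 10 genes in both groups. It had 1.0, 1.06 and 1.12 FPKM in C26 and 1.49, 1.06 and 0.59 in control muscles. On the log2 scale the change was 0.18 (95% interval -0.36 to 0.72) and turned to -0.052 without control replicate 3. Neither gene passed the test, with adjusted p of 0.923 and 0.552 in limma, and the intervals still allow changes of either sign.

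The shares of the subunits within a muscle are not altered when all genes of a library are multiplied by a single factor. Chrne held 48.4%, 53.6% and 54.4% of the summed FPKM of the 4 subunit genes in the control muscles. In the C26 muscles it held 21.8%, 6.80% and 22.2%. Chrnb1 held the largest share in every C26 muscle, from 51.6% to 83.3%, and Chrne the largest share in every control muscle. The summed FPKM of the 4 genes were 10.4, 18.1 and 20.2 in C26 and 42.0, 29.9 and 30.1 in control muscles. The ratio of Chrne to Chrna1 was 1.29, 1.68 and 1.77 in C26 and 5.19, 6.11 and 6.15 in control muscles. The log2 ratio was 0.65 ± 0.25 in C26 and 2.54 ± 0.14 in control muscles (SD, n = 3), a difference of -1.89 with p = 0.1 in a two-sided exact permutation test, the smallest p that 3 against 3 allow. Leaving out each muscle moved the difference between -1.97 and -1.75, and with quantile normalization, which changes genes unequally, it was -2.29. Of 6 ratios examined, all but Chrne to Chrna1 chosen after the values had been seen, Chrne to Chrnd and Chrnd to Chrna1 also reached that p of 0.1 (exact permutation test, 0.2 after Benjamini-Hochberg adjustment over the 6), and the Chrnb1 to Chrna1 ratio ran from 3.06 to 20.6 in C26 against 3.89 to 4.14 in control muscles.

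**Figure D2:**
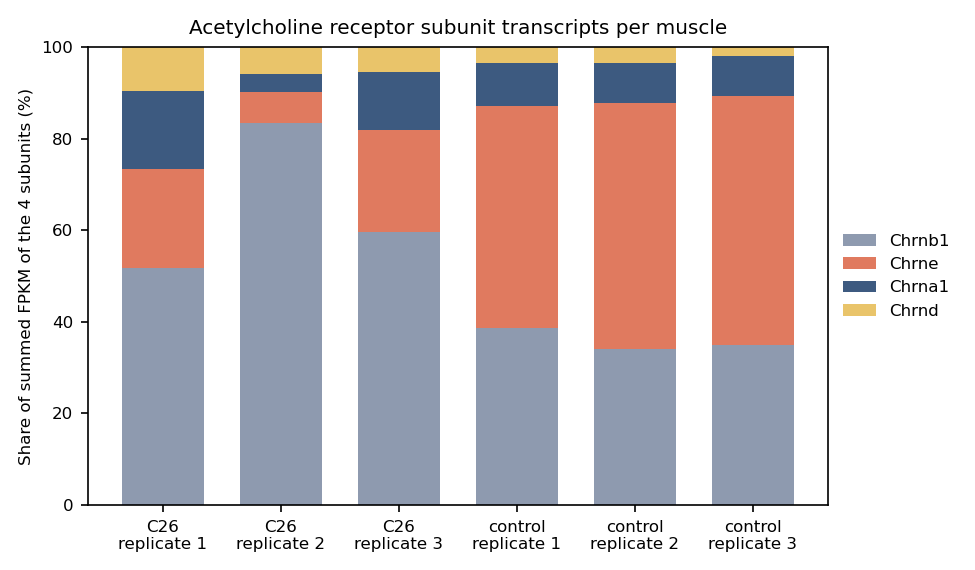
Share of each acetylcholine receptor subunit gene in the summed FPKM of the 4 genes, in percent, 1 bar per muscle. Chrne takes 48.4% to 54.4% in the 3 control muscles and 6.80% to 22.2% in the 3 C26 muscles.

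Ache encodes acetylcholinesterase and lies on chr5:137287519-137294466, plus strand. It had 0.70, 0.32 and 4.51 FPKM in C26 and 22.8, 16.8 and 12.8 in control muscles. The groups were far apart although the C26 muscles differed among themselves, with C26 replicate 3 highest. The log2 fold change was -3.08 (SE 0.67, 95% interval -4.69 to -1.48), an 8.48-fold lower level, with an adjusted p of 0.0164 in limma. The call was lost without C26 replicate 1 (adjusted p = 0.0654, limma) and without control replicate 1 (adjusted p = 0.0642, limma), while the change stayed between -3.83 and -2.55. The exons of Ache share 98 bases, 2.12% of their length, with a non-coding gene on the other strand. Of 3 genes of acetylcholinesterase anchors and butyrylcholinesterase 1 was lower and 0 higher. This was Colq, which encodes the collagen tail that holds acetylcholinesterase in the synaptic cleft. Colq had 2.28, 0.45 and 1.99 FPKM in C26 and 6.07, 4.78 and 6.81 in control muscles, with no overlap. Its log2 fold change was -1.52 (SE 0.41) with an adjusted p of 0.0311 in limma, and the call was kept in 2 of the 6 leave-one-out fits, with adjusted p (limma) up to 0.0930. The others, the membrane anchor gene Prima1 (adjusted p = 0.638, limma) and Bche (adjusted p = 0.336, limma), did not pass the test, and Prima1 had 0.33, 0.74 and 2.96 FPKM in C26 and 1.85, 1.71 and 1.49 in control muscles, with overlap.

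Among the genes that assemble the receptor, Lrp4 fell and the others did not pass the test. Lrp4 encodes the agrin receptor and lies on chr2:91457511-91513779, plus strand. It had 1.15, 1.17 and 1.6 FPKM in C26 and 3.70, 3.55 and 2.55 in control muscles, with no overlap. The C26 mean was 40% of the control mean, with a log2 fold change of -0.85 (SE 0.21, 95% interval -1.36 to -0.34, limma, adjusted p = 0.0255). The call held only without C26 replicate 3 or control replicate 3 (adjusted p from 0.0160) and was lost, with adjusted p (limma) of up to 0.0947, when any of the other 4 muscles was left out. With quantile normalization its adjusted p was 0.134 (limma).

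Musk, the gene of the receptor kinase at the center of the pathway, lies on chr4:58285960-58374303, plus strand. It had 6.26, 8.91 and 2.22 FPKM in C26 and 5.28, 4.32 and 3.28 in control muscles. C26 replicates 1 and 2 were above all controls and C26 replicate 3 was below them. The log2 fold change of 0.42 (95% interval -0.61 to 1.46) did not pass the test (limma, adjusted p = 0.468). Without C26 replicate 3 it was 0.98 and was called (adjusted p = 0.0269, limma), whereas without C26 replicate 2 it was 0.077 (adjusted p = 0.906, limma) and without control replicate 3 it was 0.23 (adjusted p = 0.741, limma).

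Rapsn encodes rapsyn, the scaffold protein under the receptors, and lies on chr2:91035620-91045729, plus strand. It had 15.2, 15.7 and 16.0 FPKM in the control muscles, the narrowest relative spread of the 10 genes there. In the C26 muscles it had 20.5, 12.7 and 0.64 FPKM. C26 replicate 3 thus lay far below every other muscle, while the other C26 muscles lay on either side of the controls. The log2 fold change was -1.02 (95% interval -3.41 to 1.36, limma, adjusted p = 0.445) and turned to 0.30 without C26 replicate 3 (adjusted p = 0.367, limma), while without C26 replicate 1 it was -1.82. The highest C26 value was 32.1 times the lowest, and 13 of the 13363 genes had a larger ratio among the C26 muscles.

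Dok7 encodes the adaptor that activates MuSK from inside the fiber and lies on chr5:35056766-35087839, plus strand. It had 3.62, 6.27 and 8.82 FPKM in C26 and 5.54, 6.94 and 6.23 in control muscles. Both group means were 6.24 FPKM, with an SD of 2.60 in C26 and 0.70 in control muscles. The log2 fold change was 0.13 (95% interval -0.65 to 0.91, limma, adjusted p = 0.781), and with FPKM as deposited it was -0.062, so no direction can be given.

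Ncam1 encodes a cell adhesion molecule found at the junction and on nerve, Schwann and satellite cells, and spreads over the fiber after denervation. It lies on chr9:49502136-49798925, minus strand, and 4.81% of its exon bases are shared with an antisense gene. It had 1.12, 2.14 and 1.25 FPKM in C26 and 2.45, 1.49 and 1.70 in control muscles. The groups overlapped, and the log2 fold change was -0.093 (95% interval -0.62 to 0.44, limma, adjusted p = 0.760). It turned to 0.25 with quantile normalization. Of 16 Schwann cell markers 2, S100b and Pmp22, were lower and 0 higher, with summed FPKM of 25.5 to 52.3 in C26 and 49.9 to 136 in control muscles. At an unadjusted p under 0.05 (limma) 5 of them were lower and 0 higher, and 15 of the 16 had a negative log2 fold change. Of 8 satellite cell markers 2, Sdc4 and Chrdl2, were higher and 1, Vcam1, was lower, with sums of 35.1 to 53.0 and 34.0 to 56.0 FPKM. The part of these cells in the Ncam1 values was not tested.

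**Figure D3:**
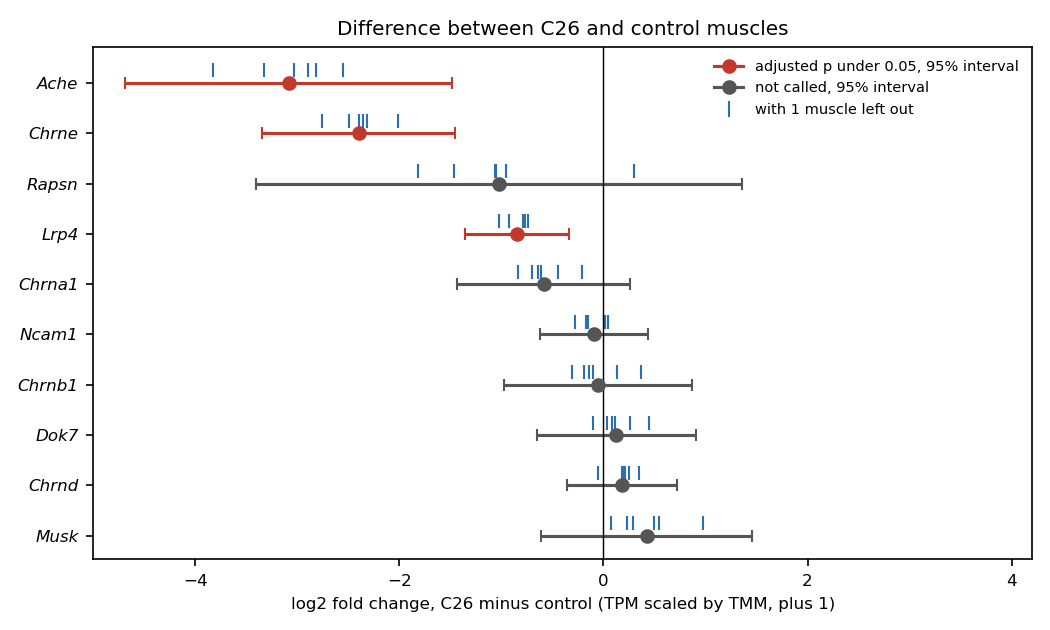
Log2 fold change of each of the 10 genes, C26 minus control, on the scale of TPM divided by TMM factors plus 1, with 95% intervals from limma, and in red the genes with an adjusted p under 0.05. Blue ticks are the values with 1 muscle left out. In these fits Chrne runs from -2.76 to -2.02 and Ache from -3.83 to -2.55, whereas Rapsn runs from -1.82 to 0.30.

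In the control muscles the order of the 10 genes by mean FPKM was Chrne (17.6), Ache (17.5), Rapsn (15.6), Chrnb1 (12.3), Dok7 (6.24), Musk (4.29), Lrp4 (3.27), Chrna1 (3.07), Ncam1 (1.88) and Chrnd (1.047). The values of neighbours overlapped except between Chrnb1 and Dok7, Dok7 and Musk, Chrna1 and Ncam1 and, at their edges, Ncam1 and Chrnd, where 1.49 was the lowest Ncam1 and the highest Chrnd value. In the C26 muscles the order by mean FPKM was Rapsn (11.3), Chrnb1 (10.8), Dok7 (6.24), Musk (5.80), Chrne (2.66), Ache (1.84), Chrna1 (1.67), Ncam1 (1.503), Lrp4 (1.31) and Chrnd (1.06). There the values of all neighbours overlapped except those of Lrp4 and Chrnd. Rapsn was the highest of the 10 genes in C26 replicate 1, below Chrnb1 in replicate 2 and the lowest in replicate 3, so its first place rests on C26 replicate 1. By mean, Chrne moved from place 1 to 5 and Ache from 2 to 6. The summed FPKM of the 10 genes were 43.7, 49.6 and 39.2 in C26 and 97.0, 78.6 and 72.7 in control muscles. Among the C26 muscles, replicate 3 had the highest scaled value for 6 genes, namely Chrna1, Chrnd, Chrne, Dok7, Lrp4 and Ache, and the lowest for Musk and Rapsn. Among the control muscles, replicate 3 had the lowest scaled value for 8 genes, Chrne, Ache and Lrp4 among them. Control replicate 1 had the highest for 7 genes, Chrne and Ache among them.

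The other genes of the junction were examined with a list of 47 genes, of which 43 had values, and Nrg1, Erbb4, Chrng and Fgfbp1 were not analysed here. Of the 43 genes, 8 (18.6%) were lower and 5 (11.6%) higher, beside 14.5% and 19.4% of all genes. With FPKM as deposited 14 were lower and 2 higher, and with 1 muscle left out between 3 and 11 were lower and between 1 and 6 higher. The lowest of these counts came without control replicate 1, at 3 lower and 1 higher. With both replicates 3 left out, 14 were lower and 7 higher. The counts over all genes also rose there, from 1931 lower and 2590 higher to 2805 lower and 3780 higher.

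Of 6 nerve-derived or secreted signals and their receptors 0 were called (limma, 1 at an unadjusted p under 0.05). Agrn, which encodes agrin, had 2.54, 2.22 and 2.37 FPKM in C26 and 12.7, 5.10 and 4.09 in control muscles. The groups did not overlap, but control replicate 1 lay far above the other controls, and the log2 fold change of -1.07 (SE 0.38) missed the threshold (limma, adjusted p = 0.0689). Without control replicate 3 it was -1.40 and was called (adjusted p = 0.0268, limma), whereas without control replicate 1 it was -0.63 (adjusted p = 0.0930, limma). Agrin made by muscle lacks most of the clustering activity of the nerve form, and the FPKM do not tell the forms apart.

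Of 6 genes of the synaptic basal lamina 3 were lower and 0 higher. Nid2, which encodes nidogen-2, had 0.59, 0.59 and 0.62 FPKM in C26 and 4.66, 2.62 and 2.46 in control muscles. The Nid2 change was -1.49 on the log2 scale (SE 0.22, limma, adjusted p = 0.00643), and it was called in all 6 leave-one-out fits. Lama4, a laminin chain gene, had 1.21, 1.04 and 1.2 FPKM in C26 and 5.02, 4.40 and 2.54 in control muscles, and its change of -1.18 on the log2 scale (SE 0.26, limma, adjusted p = 0.0169) was called in 2 of the 6 fits. The perlecan gene Hspg2 was the third, with a log2 fold change of -0.93, and was called in 2 of the 6 fits. Vessels and connective tissue make these proteins too. Fibroblast markers were lower for 3 of 6 genes and higher for 0, with summed FPKM of 160 to 200 in C26 and 329 to 401 in control muscles, and endothelial markers were lower for 1 of 5, with sums of 41.8 to 43.6 and 50.7 to 77.8. Their part in the basal lamina genes was not tested.

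Of 5 genes of the utrophin scaffold, Utrn alone was called lower. Utrn encodes utrophin, the relative of dystrophin that is concentrated at the junction. It had 2.22, 2.31 and 2.16 FPKM in C26 and 5.65, 3.43 and 4.44 in control muscles. The Utrn change was -0.65 on the log2 scale (SE 0.16, limma, adjusted p = 0.0255) and was called in 2 of the 6 leave-one-out fits, with adjusted p (limma) up to 0.0891.

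Of 4 cytoskeletal and nuclear anchors, Ky was lower and Syne1, a nuclear envelope gene with a log2 fold change of 0.82 that was called in 1 of the 6 fits, was higher. Ky encodes kyphoscoliosis peptidase, a muscle protein needed for normal muscle growth. It had 2.69, 2.13 and 2.45 FPKM in C26 and 54.9, 66.8 and 45.6 in control muscles. This was the largest difference on the list, with a log2 fold change of -4.01 (SE 0.22), a 16.1-fold lower level (limma, adjusted p = 0.000822).

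Of 9 kinases and adaptors 2 were lower, Pak1 and Abl1, with log2 fold changes of -1.07 and -0.77, and 2 were higher, Dnaja3 and Crk, with 0.93 and 0.62. Pak1 was called in all 6 leave-one-out fits, Abl1 and Crk in 2 and Dnaja3 in 3. These genes, Hspg2 and Syne1 were named after their values had been seen. Of 4 ETS factor genes 1 was higher. This was Gabpa, also named after its values had been seen, whose protein is known to bind N-boxes. Gabpa had 10.5, 9.09 and 8.48 FPKM in C26 and 5.36, 5.71 and 4.92 in control muscles. Its log2 fold change was 0.94 (limma, adjusted p = 0.00849), and it was called in all 6 leave-one-out fits. The others of this role, Etv4, Etv5 and Gabpb1, were not called, with log2 fold changes of -0.63, -0.37 and -0.088. Of 5 glycosylation enzymes that modify junction proteins 1 was higher, Gfpt1, which makes the sugar precursor for them. The other 4 were not called but had an unadjusted p under 0.05 (limma). Their log2 fold changes were -0.82 for Gmppb, -0.65 for Alg14, -0.64 for Alg2 and 0.74 for Dpagt1. Gfpt1 had 8.24, 13.6 and 4.52 FPKM in C26 and 3.44, 4.42 and 3.55 in control muscles. The lowest C26 value was just above the highest control value, and the log2 fold change of 1.17 (SE 0.35, limma, adjusted p = 0.0429) was called only without C26 replicate 3 among the leave-one-out fits, with adjusted p (limma) up to 0.127 in the others.

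**Figure D4:**
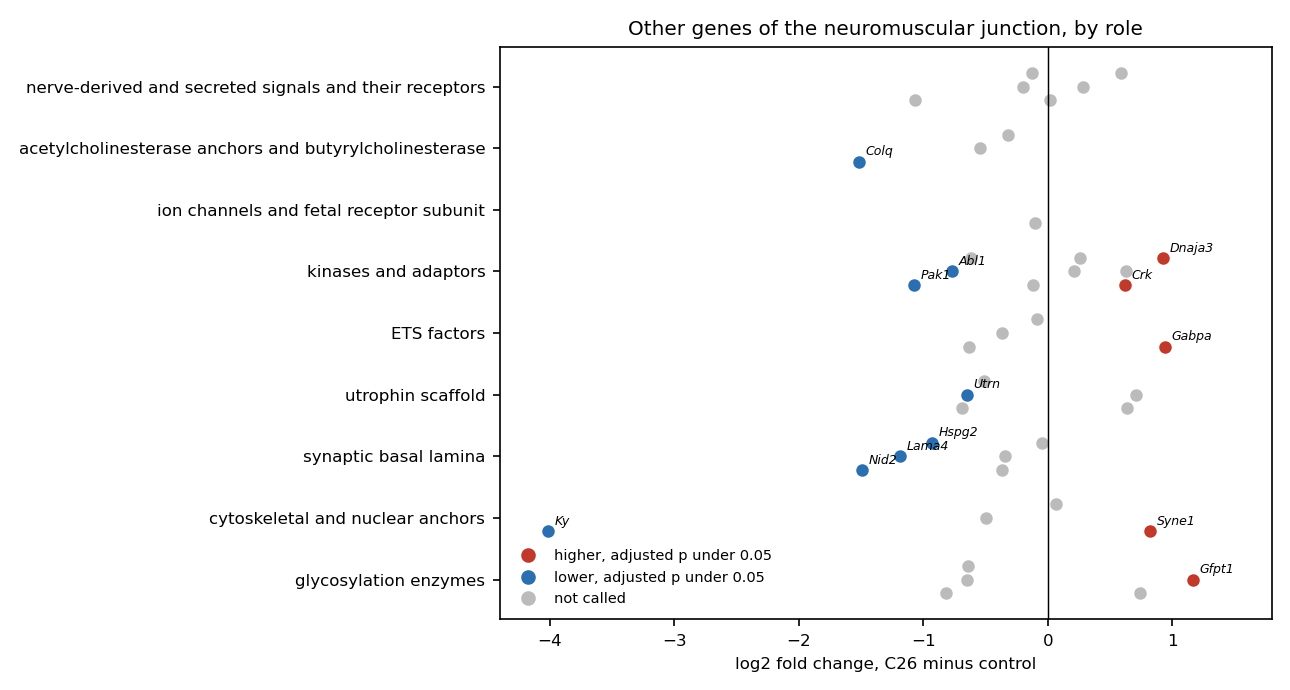
Log2 fold change, C26 minus control, of the 43 other junction genes with values, 1 point per gene and 1 line of points per role. Genes with an adjusted p under 0.05 are named, 8 lower in blue and 5 higher in red, and Ky lies farthest out at -4.01.

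Genes that respond to denervation were examined since loss of the nerve alters several of the 10 genes in adult muscle. The list held 16 genes, of which 13 were analysed here. Of these 13 genes 3 (23.1%) were higher and 2 (15.4%) lower, beside 19.4% and 14.5% of all genes. Tnfrsf12a, the receptor gene of the cytokine TWEAK, rose from 7.23, 5.78 and 4.84 FPKM in control to 64.1, 184 and 45.6 in C26 muscles, or by 3.87 on the log2 scale (SE 0.48, limma, adjusted p = 0.00418). Gadd45a, a growth arrest gene, rose from 20.5, 17.3 and 18.8 to 72.8, 66.2 and 91.2 FPKM, or by 2.19 on the log2 scale (SE 0.19, limma, adjusted p = 0.00187). Both were called in all 6 leave-one-out fits. Ankrd1, a stretch-induced sarcomere gene, had 3.65, 160 and 14.7 FPKM in C26 and 0.52, 0.78 and 0.75 in control muscles, and its log2 fold change of 4.25 (SE 1.2, limma, adjusted p = 0.0361) was called in 2 of the 6 fits. It was 2.83 without C26 replicate 2, the muscle with the highest value, and 5.43 without C26 replicate 1.

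A pair of myogenic factors that bind E-boxes were on the list. Myod1 fell, with 1.24, 3.36 and 4.12 FPKM in C26 and 14.6, 16.4 and 13.6 in control muscles. Its log2 fold change was -2.05 (SE 0.38, limma, adjusted p = 0.0108), and it was called in all 6 leave-one-out fits. Myog, the myogenin gene that rises after denervation, had 14.7, 30.9 and 4.82 FPKM in C26 and 4.94, 6.08 and 4.01 in control muscles. C26 replicates 1 and 2 were above all controls and C26 replicate 3 lay among them, as it lay low for Musk. The log2 fold change of Myog, 1.51 (SE 0.58), missed the threshold (limma, adjusted p = 0.0884). The change was 2.23 without C26 replicate 3 (adjusted p = 0.00700, limma) and 0.94 without C26 replicate 2 (adjusted p = 0.197, limma). With the replicate number added to the model, Myog was called higher (adjusted p = 0.0491, limma). Hdac9, a repressor gene that falls after denervation, had 0.30, 0.47 and 0.27 FPKM in C26 and 0.88, 0.75 and 1.54 in control muscles, and its change of -0.67 on the log2 scale (limma, adjusted p = 0.0339) was called in 1 of the 6 leave-one-out fits.

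**Figure D5:**
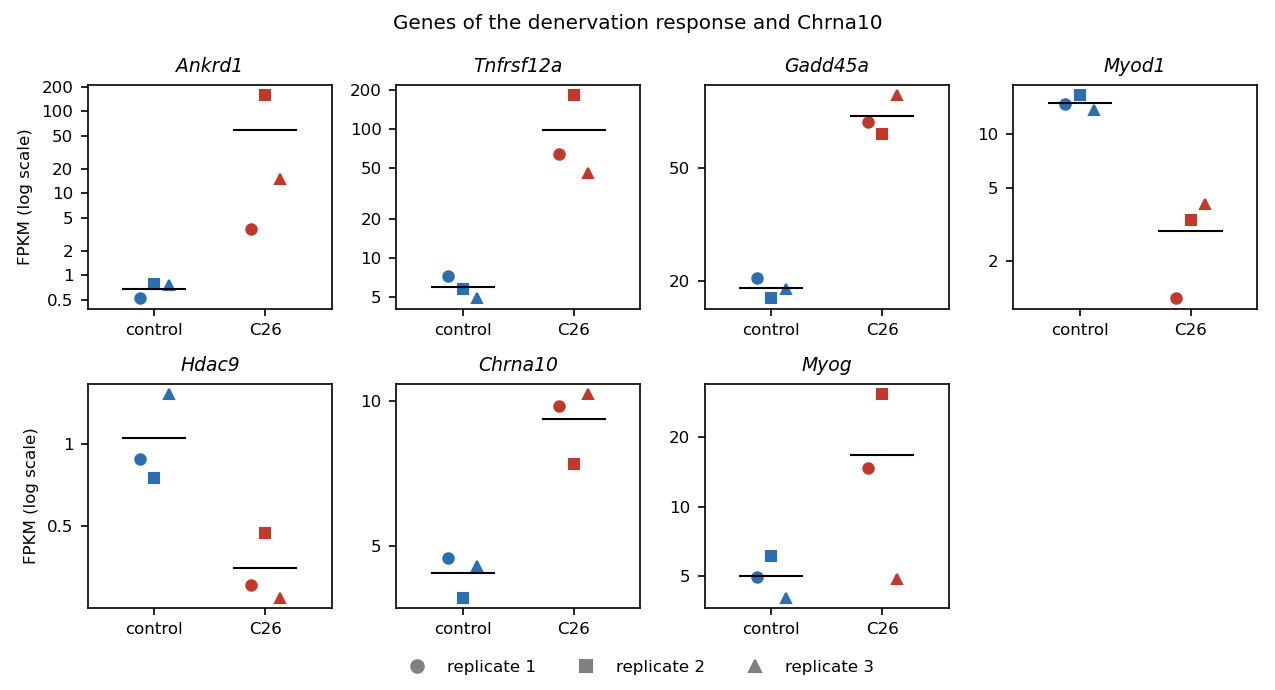
FPKM on log axes of the named genes of the denervation list and of Chrna10, control in blue and C26 in red, with group means as lines. Gadd45a, Tnfrsf12a, Ankrd1 and Chrna10 lie higher and Myod1 and Hdac9 lower in all 3 C26 muscles, while Myog overlaps at 4.82 in C26 replicate 3.

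Of 12 other nicotinic receptor subunit genes, Chrna2 and Chrna10 had values and the rest were not analysed here. Chrna10, a subunit gene best known from the inner ear, rose from 4.72, 3.91 and 4.55 FPKM in control to 9.78, 7.39 and 10.3 in C26 muscles. Its log2 fold change was 1.16 (SE 0.18, limma, adjusted p = 0.00739), and it was called in all 6 leave-one-out fits. In every C26 muscle Chrna10 exceeded Chrne in FPKM, and in every control muscle Chrne exceeded Chrna10. Chrna2 was at most 0.69 FPKM in any muscle and was not called.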

How the data were processed

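Gastrocnemius RNA of 3 C26 and 3 control mice was ribosome-depleted and sequenced as single reads of 50 bases. The authors deposited 1 table of FPKM with 2 decimals. The submitters' processing notes name HISAT2 2.0.4, Bowtie2 2.2.5, RSEM 1.2.12 and the build mm9, whereas the methods name a GRCm38 build, so positions here are those of GENCODE M21 on GRCm38 and were not used for the FPKM. All 13363 genes of the table were above 0 in all 6 muscles. Entrez IDs were matched to symbols through RefSeq (GRCm38.p6) for 13327 genes, and 36 were not matched.

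FPKM were rescaled to TPM (summing to 1000000), divided by TMM factors (trims of 30% and 5%) and taken as log2(value + 1), which understates changes of low genes. Groups from the labels were compared in R 4.3.3 with limma 3.58.1 (two-sided, no covariate) and Benjamini-Hochberg adjustment over all 13363 genes, tested on simulated data. Ratios were compared by exact permutation tests. Figures were drawn with matplotlib 3.10.9. The labels do not say how the replicates were obtained beyond separate samples, so p-values measure the spread between these samples. Depth is unknown from FPKM. The members and the gene lists were chosen with earlier results of these data known. Genes were named by a rule: all 10 members, of each other list up to 5 called genes with the largest changes, and Agrn, Colq, Utrn and Myog. Other genes were named after their values had been seen. Alternatives were another pseudocount, a filter at a mean TPM of 1, TPM without the TMM factors, the FPKM as deposited, normalization by quantiles, a replicate block, an intensity trend, an ordinary linear model and leaving out each muscle. Leaving out both replicates 3 was added after seeing the data.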

Additional observations from a re-analysis of the deposited data

How the results depend on the processing

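Chrne was lower and called under all 9 alternative settings and all 6 fits that left out a muscle, whereas Lrp4 was called under 6 of the 9 settings and 2 of the 6 fits, and Ache under 8 and 4. The 9 settings include leaving out both replicates 3, which was not planned and in which Chrne, Ache and Lrp4 were all called. Leaving out 1 muscle gave 0 to 1 of the 10 genes higher and 1 to 3 lower, 1131 to 3311 of all genes higher and 669 to 2160 lower, and 1 to 6 of the other junction genes higher and 3 to 11 lower. The Chrne to Chrna1 difference ran from -1.97 to -1.75 in these fits and was -2.29 with quantile normalization, which left 3 other junction genes higher. With FPKM as deposited 1678 of all genes were higher and 2504 lower, the median of all genes was -0.14, and 2 other junction genes were higher and 14 lower. An ordinary linear model gave 1 of the 10 genes lower, 1526 of all genes higher and 959 lower, and 1 other junction gene higher and 3 lower. Leaving out both replicates 3, chosen after seeing the data, gave 1 of the 10 genes higher. It gave 3780 of all genes higher and 2805 lower, and 7 other junction genes higher and 14 lower. Direction turned for 5 genes, none of them called. With a muscle left out Chrnb1 ran from -0.31 to 0.37, Chrnd from -0.052 to 0.35, Dok7 from -0.11 to 0.45, Rapsn from -1.82 to 0.30 and Ncam1 from -0.28 to 0.047. Without both replicates 3 Chrnd was -0.041, Dok7 -0.13 and Rapsn 0.29, with FPKM as deposited Dok7 was -0.062, and with quantile normalization Ncam1 was 0.25. The causes were not tested. Depth is unknown, so counting error in low genes such as Chrnd cannot be separated from the spread between muscles.

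For same-numbered C26 and control muscles the correlations of deviations across genes were -0.039, -0.084 and -0.11. For differently numbered muscles they ran from -0.10 to 0.13. Values this close to each other cannot decide whether the same-numbered muscles were paired. With the replicate block 2 of the 10 genes were lower, 1236 of all genes were lower and 1844 higher, and 5 other junction genes were lower and 3 higher.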

Other observations

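The genes whose C26 muscles differed more among themselves than those of Rapsn included Mb, Cryab, Cd68 and Ankrd1, chosen here after their values had been seen. Mb, the oxygen-binding protein of oxidative fibers, had 275, 74.0 and 4906 FPKM in C26 and 578, 1569 and 887 in control muscles, with C26 replicate 3 highest. Cryab, a small heat shock protein gene, had 147, 5156 and 722 FPKM in C26 and 418, 358 and 366 in control muscles, with C26 replicate 2 highest. Cd68, a macrophage gene, had 34.9, 247 and 6.46 FPKM in C26 and 4.75, 1.75 and 5.77 in control muscles, again with C26 replicate 2 highest. The other macrophage markers did not follow it, with 0.50, 0.46 and 0.12 FPKM of Adgre1 and 3.04, 2.52 and 1.63 FPKM of Csf1r in the C26 muscles. C26 replicate 2 also had the lowest Ache, Chrne, Chrna1 and Lrp4 values of the C26 muscles after scaling, and C26 replicate 3 the lowest Rapsn and Musk values. The part of these differences in the junction genes was not tested.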
